A study of Homo sapiens with 18 samples.

Results

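The baseline expression of control SUM149PT cells was compared with that of control BT549 cells, in 6 of the 18 TempO-Seq libraries of a study on ASAP1 silencing in triple-negative breast cancer (TNBC). The members were all probes whose normalized counts averaged 10 or more over the 6 libraries, which kept 10092 of the 21111 probes of the assay, for 9525 gene symbols, and left out 11019. SUM149PT, described as basal-like, and BT549, described as mesenchymal-like, are established human breast cancer cell lines, each a single line, so differences between subtypes and differences between these lines cannot be told apart. Each group held 3 libraries of cells transfected with 50 nM siCtrl and lysed after 72 h, described as biological triplicates. By the study's methods, siCtrl was a mixture of many siRNAs against kinases, which both groups carried, so no untransfected cells were compared. The siASAP1 libraries of the same lines and the siCtrl libraries of Hs578T, a further mesenchymal-like line, served as a background for some values.

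TempO-Seq anneals a pair of oligonucleotides to each target RNA, ligates them and counts the product, so a probe covers only a small piece of its RNA and has its own efficiency. Levels were therefore compared between lines for a given probe, never between genes. Epithelial cells are held together by junctions of E-cadherin, desmosomes and claudins, and carry a keratin skeleton. In the epithelial to mesenchymal transition (EMT), transcription factors of the SNAI, ZEB and TWIST families bind short E-box sequences and silence such genes, while vimentin, fibrillar collagens and matrix proteins appear. Carcinoma lines keep different positions on this axis in culture.

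The library labelled SUM149PT siCtrl replicate 2 stood apart from the other libraries of its group. Its log2 values correlated with those of replicates 1 and 3 at r = 0.737 and 0.713 across the 10092 probes, against 0.927 between replicates 1 and 3 and 0.896 to 0.965 within BT549. With the SUM149PT siASAP1 libraries 1, 2 and 3 it correlated at 0.867, 0.720 and 0.872, where replicate 1 had 0.773, 0.888 and 0.770. ASAP1, the Arf GTPase-activating protein targeted by the study, had 1087, 189 and 1314 normalized counts in the 3 SUM149PT siCtrl libraries and 282, 468 and 184 in the 3 siASAP1 libraries, so the second siCtrl library lay within the range of the silenced ones. Its deviation from the group mean also correlated with the GC content of the transcripts, at -0.371, against 0.249 and 0.317 for replicates 1 and 3. Deviations within a group cancel out for each probe, so an outlying library gives the others opposite values. The correlations thus do not show which library carried the GC effect. SUM149PT siASAP1 replicate 2 in turn had the highest ASAP1 count of its group. Whether the labels of these 2 libraries were exchanged was not tested, so what their siCtrl and siASAP1 values stand for is uncertain. The labels were kept, and the counts of calls per gene list are given with and without the siCtrl library. The read totals were 4.89, 7.74 and 4.63 M in SUM149PT and 5.76, 9.46 and 8.76 M in BT549, a difference that did not pass an exact permutation test (two-sided p = 0.2, where 0.1 is the smallest p of 3 libraries against 3).

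With calls made at an adjusted p under 0.05 and a Log2 FC beyond 1 either way (limma, Benjamini-Hochberg adjustment over all 10092 probes), 829 probes were higher in SUM149PT, which is 8.21% of those tested, and 688 were lower, which is 6.82%. Without the library labelled SUM149PT siCtrl replicate 2, 1684 probes (16.7%) were called higher and 1870 (18.5%) lower. The list counts made without that library are to be read beside these larger shares. Those made with 6 libraries are to be read beside 8.21% and 6.82%. Of the calls made with all 6 libraries, 823 of 829 and 686 of 688 were also made without the library labelled SUM149PT siCtrl replicate 2. For the 3554 calls made without it, its value was nearer to the other SUM149PT libraries than to BT549 in 1740, or 49.0%. The median Log2 FC of all probes was -0.0032, with quartiles at -0.94 and 0.84, and the median absolute Log2 FC of the called probes was 4.39, so the calls were mostly large differences. No read at all was found in BT549 for 210 of the probes called higher, or in SUM149PT for 161 of those called lower. A probe seen in only 1 line could pass the filter only through that line, so its presence among the members already implied a difference. In 99 symbols with several tested probes and a call, no probes were called in opposite directions, and all probes of a symbol had the same sign in 95 of them (96.0%), against 73.1% of the 513 symbols with several tested probes.

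**Figure D1:**
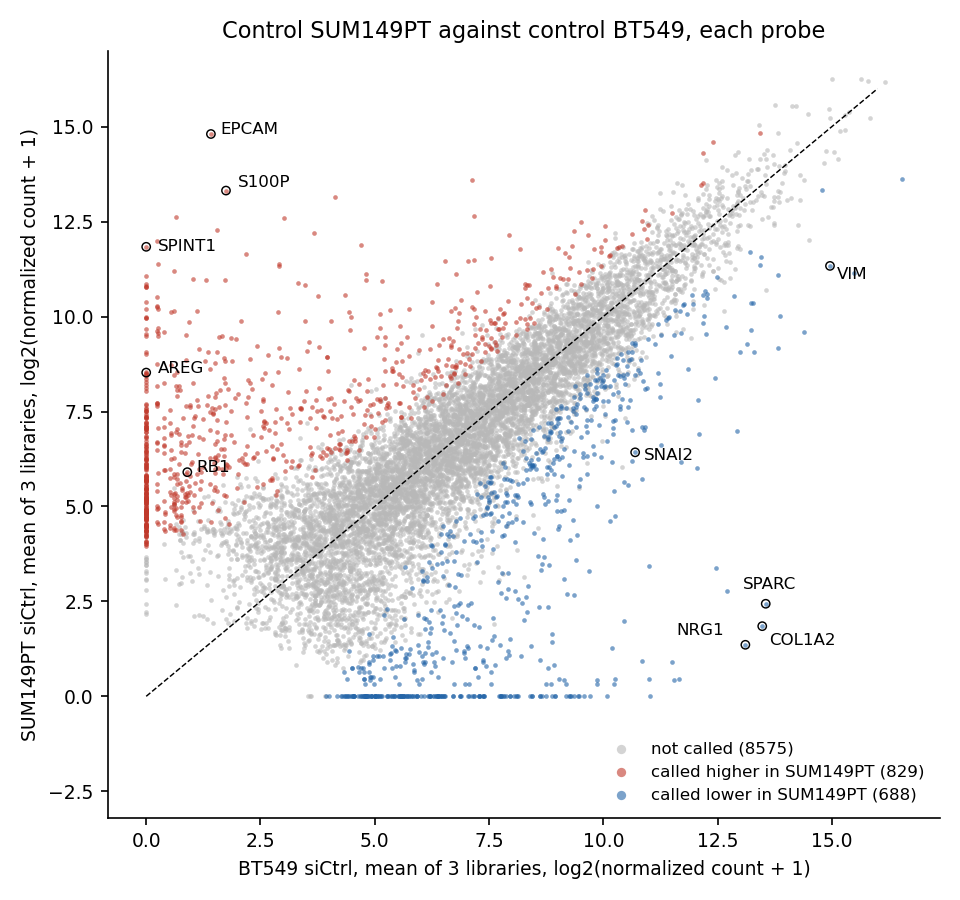
Mean log2(normalized count + 1) of 3 siCtrl libraries for each of the 10092 probes, BT549 on the x axis and SUM149PT on the y axis, with the dashed line at equal levels. The 829 probes called higher (red) and 688 called lower (blue) include a column at 0 in BT549 and a row at 0 in SUM149PT, and EPCAM, SPINT1 and S100P lie opposite SPARC, COL1A2 and NRG1.

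Several genes were abundant in 1 line and at or near 0 in the other. EPCAM, an epithelial adhesion molecule on chr2:47345158-47387601 (GRCh38), had 31521, 20396 and 36679 normalized counts in the SUM149PT libraries and 1.25, 2.52 and 1.40 in BT549, a Log2 FC of 13.39 ± 0.41 (SE) with an adjusted p of 3.20e-05 (limma). STEAP4, a metalloreductase of the cell membrane, had 6499, 6967 and 5395 in SUM149PT and 1.25, 0 and 0.701 in BT549, where 2 reads were found in all. The ratio of the groups was 12264 (95% interval 3395 to 101280.0). Ratios with an interval divide the reads pooled over a group by its summed depth. Deeper libraries weigh more in them, so the means of the printed counts give other ratios. S100P, a calcium-binding protein, was read at 15643, 3822 and 17806 against 6.24, 0 and 4.21, and ANXA3, an annexin that binds membrane lipids, at 2654, 1155 and 3304 against 0 in each BT549 library. For a gene with no read in 1 line, the fold was bounded with 3 reads per library, on average 2.58 normalized counts in BT549 and 3.94 in SUM149PT, and ANXA3 was then at least 919.8-fold higher in SUM149PT. In the other direction, NRG1, the growth factor neuregulin 1 at chr8:31639386-32767959, had 0, 5.47 and 1.60 in SUM149PT and 5046, 12539 and 10902 in BT549 (Log2 FC -11.75 ± 0.74, adjusted p = 1.47e-04, limma). NCAM2, a neural adhesion molecule, had 1.43, 0 and 0 against 3778, 2651 and 2641, and ABI3BP, an extracellular matrix protein, had 0 in each SUM149PT library against 2070.1, 2185 and 1954, at least 525-fold lower. The rule that picked the largest changes admitted only probes whose groups did not overlap. That the library labelled SUM149PT siCtrl replicate 2 lay on the side of its own line was thus fixed by the choice. Over all probes tested, 33.2% did not overlap. In bulk libraries, fewer cells of a type and less RNA per cell cannot be told apart.

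Epithelial genes were mostly higher in SUM149PT. Of 33 epithelial junction genes, 26 passed the filter, 17 were called higher in SUM149PT and 0 lower, with a median Log2 FC of 4.13 (3.73 when genes at 0 in 1 line were set to their bound) against -0.0032 over all probes. Among 30 transcription factors, splicing factors, proteases and trafficking proteins of epithelial cells, 26 passed, 19 were called higher and 1 lower (median 5.79, or 4.55 with bounds). Without the library labelled SUM149PT siCtrl replicate 2, the junction genes had 17 calls higher and 1 lower, and the regulators 20 and 1. CDH1, which encodes E-cadherin of the adherens junction at chr16:68737225-68835548, had 94.4, 114 and 87.9 normalized counts in SUM149PT and 0 in each BT549 library, at least 38.3-fold higher (adjusted p = 6.15e-04, limma). The tight junction gene CLDN7 had 2379.8, 839 and 2761 against 0 in each BT549 library (at least 773-fold). The lines did not overlap in CDH1 and CLDN7, and the second SUM149PT library was the lowest of its group in CLDN7. S100A14, a calcium-binding protein of epithelia, had 1756, 369.9 and 1538 against 0 in each BT549 library. DSP, the desmoplakin that anchors keratin to desmosomes, was named after its values were seen, and was read at 2876, 976 and 2888 in SUM149PT and 1.25, 5.66 and 0 in BT549.

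Among the regulators, OVOL2, a zinc finger repressor of mesenchymal genes, had 1173, 781 and 1605 normalized counts in SUM149PT and 0, 2.52 and 0 in BT549 (Log2 FC 9.55 ± 0.68, adjusted p = 2.07e-04, limma). The membrane protease matriptase, ST14, and its inhibitor SPINT1 differed together. ST14 had 2289.7, 414 and 2484 and SPINT1 3917, 3157 and 3958 in SUM149PT, both had 0 in every BT549 library, and they were at least 671-fold and 1426-fold higher. GRHL2, a grainyhead factor that activates epithelial genes, and ESRP1, which directs epithelial splicing, were named after their values were seen. GRHL2 had 92.96, 129 and 65.5 against 0 in each BT549 library, and ESRP1 858, 10399 and 735 against 11.2, 10.1 and 6.31, so here the second SUM149PT library was the highest of the 6. KLF4, a zinc finger factor of epithelial barriers, was the exception in the list and had 0 in every SUM149PT library against 51.2, 40.9 and 49.1 in BT549, at least 11.9-fold lower (adjusted p = 0.0017, limma). Hs578T had 3.38, 19.6 and 23.6 for KLF4, 22.8, 10.6 and 23.6 for EPCAM and 0 in each library for CDH1.

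The E-box CACCTG, which is CAGGTG on the other strand and is bound by SNAI and ZEB factors, was searched on both strands in the 250 bases before the annotated starts of genes, from RefSeq on GRCh38.p14. Windows were given for 38 of the 63 genes of both epithelial lists, and 20 of these 38 held the motif in at least 1 window, against 20.6% of the 27305 genes with a window. As only 60.3% of the list had a window, under the 80% that such a check needs, the comparison of shares is void for the list. Of 45 mesenchymal genes, 31 had a window and 3 of these held the motif, which covers 68.9% of that list and is void for the same reason. No window was used for CDH1, EPCAM, ST14 and OVOL2. The motif stretches of CLDN7, SPINT1 and S100A14, the epithelial genes with a match that the naming rule picked, are shown with 30 bases each, on the strand of the gene, with the E-box in capitals. CLDN7 had 4 matches within 3 stretches that the annotation also places in exons, at chr17:7262628-7262657, chr17:7262589-7262618 and chr17:7262479-7262508. SPINT1 had 1 match outside annotated exons at chr15:40844446-40844475, and S100A14 had 1 in an annotated exon at chr1:153616326-153616355. A match is a description of the letters, and occupancy of these sites was not measured here.
CLDN7 stretch 1: ctcctCACCTGggcaaggaggggtgggggc
CLDN7 stretch 2: cggttCAGGTGagtgtcccttcggtgacgt
CLDN7 stretch 3: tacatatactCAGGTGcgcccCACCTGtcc
SPINT1: ctgatCAGGTGtgtctcctcctctgtcccc
S100A14: gtataagagctgagctCAGGTGagctggct

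AP1M2, the epithelial subunit of a clathrin adaptor that sorts proteins to the basolateral membrane, was chosen after its values were seen because its window held 3 matches and only 3 exonic bases, which were left out. It had 350.4, 337 and 398 normalized counts in the SUM149PT libraries and 0 in each BT549 library (adjusted p = 1.50e-04, limma). The 247 bases before its start, on the minus strand at chr19:10587316-10587562, are printed 5′ to 3′ with the E-boxes in capitals, all of them near the start.
AP1M2: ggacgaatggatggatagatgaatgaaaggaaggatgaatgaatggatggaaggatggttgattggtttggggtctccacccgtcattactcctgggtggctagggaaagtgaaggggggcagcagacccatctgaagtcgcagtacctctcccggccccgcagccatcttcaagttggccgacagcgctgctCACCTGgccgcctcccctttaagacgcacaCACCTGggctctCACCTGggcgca

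Keratins, the intermediate filaments of epithelia, were called in most members that passed the filter. Of 22 keratin genes, 13 passed the filter and 11 were called higher in SUM149PT, 0 lower, and 13 without the library labelled SUM149PT siCtrl replicate 2. KRT17, a keratin of basal and activated epithelium, had 1509, 647 and 1941 normalized counts against 0, 0.629 and 0, a ratio of 4694 (95% interval 842 to 185476). KRT6A had 2547, 729 and 3347 against 0 in each BT549 library (at least 856-fold higher). KRT81 and KRT86, hair keratins, had 9741, 1122 and 11046 and 8351, 815 and 9796 against 3.74, 0 and 4.21 and 0, 0.629 and 0, and as KRT81, KRT83 and KRT86 are near-identical paralogs, as are KRT6A and KRT6B, reads could be shared among them. By the probes given, the second SUM149PT library held the lowest count of its group in each of these 4 keratins and still lay far above BT549. A further KRT81 probe, under the filter, had 0, 7.29 and 0 in SUM149PT and 0 in each BT549 library. The basal keratin KRT5 had 42.9, 0 and 35.2 in SUM149PT and 0 in each BT549 library, and it was not called with 6 libraries (adjusted p = 0.186, limma) but was without the library at 0 (adjusted p = 0.00137). Against the lists of markers for the labelled cell types, 11 of 12 epithelial markers passed the filter and all 11 were called higher, 3 of 8 basal markers were called higher, and 6 of 10 mesenchymal markers were called lower with 1 higher. Without the library labelled SUM149PT siCtrl replicate 2, the basal markers KRT5 and KRT6B were called higher as well. The calls of the epithelial and mesenchymal markers stayed the same. The summed level of the 12 epithelial markers ran from 42564 to 59810 normalized counts in SUM149PT and from 68.6 to 333 in BT549. EPCAM and KRT8 made up most of the sum in SUM149PT. In BT549 most of it was KRT8, at 47.4, 315 and 181. As probes differ in efficiency, the sum does not weigh the 12 markers alike.

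The mesenchymal genes differed in the opposite direction in part. Of 45 mesenchymal genes, 39 passed the filter, 20 were called lower in SUM149PT and 3 higher, with a median Log2 FC of -2.33, and without the library labelled SUM149PT siCtrl replicate 2 the calls were 21 and 6. VIM, the intermediate filament vimentin at chr10:17228259-17237593, had 2908, 1994 and 2965 normalized counts in SUM149PT and 27346, 36307 and 32649 in BT549, a Log2 FC of -3.63 ± 0.32 (SE) with an adjusted p of 4.92e-04 (limma), so it remained well detected in SUM149PT. SPARC, a collagen-binding matrix glycoprotein, was close to absent from SUM149PT with 7.15, 3.64 and 3.20 against 18902, 9900.1 and 9309. DDR2, a receptor for fibrillar collagen, had 0 in each SUM149PT library against 223, 189 and 279.9 (at least 58.6-fold lower), and THY1, a surface glycoprotein of fibroblasts, 0 against 259.5, 114 and 157 (at least 44.9-fold). TAGLN, an actin-binding protein of smooth muscle, had 22.9, 0 and 38.4 against 1137, 729 and 675, and its call was lost in 4 of the 20 other settings tried. Hs578T had 108625, 126601 and 218740.0 normalized counts of VIM, 13278, 19055 and 12505 of SPARC and 136, 75.9 and 176 of TAGLN, so TAGLN was highest in BT549 among the 3 lines.

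The 3 genes called higher, although usually counted as mesenchymal, were CDH2, TNC and LOXL1. CDH2, or N-cadherin, had 1628, 1463 and 2108 normalized counts in SUM149PT against 462, 262 and 253 in BT549 (Log2 FC 2.45 ± 0.38, adjusted p = 0.00501, limma), with no overlap, and SUM149PT thus carried both cadherins. TNC, the matrix glycoprotein tenascin C, had 2034, 872 and 2339 against 169.7, 109 and 182 (Log2 FC 3.41 ± 0.48, adjusted p = 0.00331). LOXL1, a cross-linking enzyme of elastin, had 509, 769 and 559 against 175, 180.5 and 187, and its call was lost in 4 other settings. Hs578T had 3264, 3222 and 5543 for CDH2, above both lines.

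Of 18 EMT transcription factors, 11 passed the filter, 5 were called lower in SUM149PT and 0 higher, with 7 lower and 2 higher without the library labelled SUM149PT siCtrl replicate 2. SNAI2, or Slug, had 110.1, 75.6 and 73.5 normalized counts in SUM149PT and 1874, 1392 and 1754 in BT549, a Log2 FC of -4.27 ± 0.36 (SE) with an adjusted p of 3.75e-04 (limma), and a further SNAI2 probe was 0, 14.6 and 9.59 against 125, 116 and 107. ZEB2 had 81.5, 94.7 and 62.3 against 847, 780.4 and 638 (Log2 FC -3.24 ± 0.37, adjusted p = 0.00133). The homeobox factors PRRX1 and PRRX2 had 0, 5.47 and 1.60 and 7.15, 0 and 0 against 93.6, 358 and 288 and 84.9, 38.4 and 39.99, with the call of PRRX2 lost in 5 other settings. All libraries of SUM149PT lay below all of BT549 in these 4 factors. The ZEB1 probe was at 0 in the 6 libraries and gave no information on ZEB1. After siASAP1, SNAI2 had 234, 237 and 244 in SUM149PT and 643, 563 and 483 in BT549, a Log2 FC of -1.22 (adjusted p = 0.0402, or 0.0576 without SUM149PT siASAP1 replicate 2, which ends the call), and the difference between the siRNAs had an adjusted p of 0.125 in the fit of 12 libraries and 0.0389 without both SUM149PT libraries numbered 2.

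**Figure D2:**
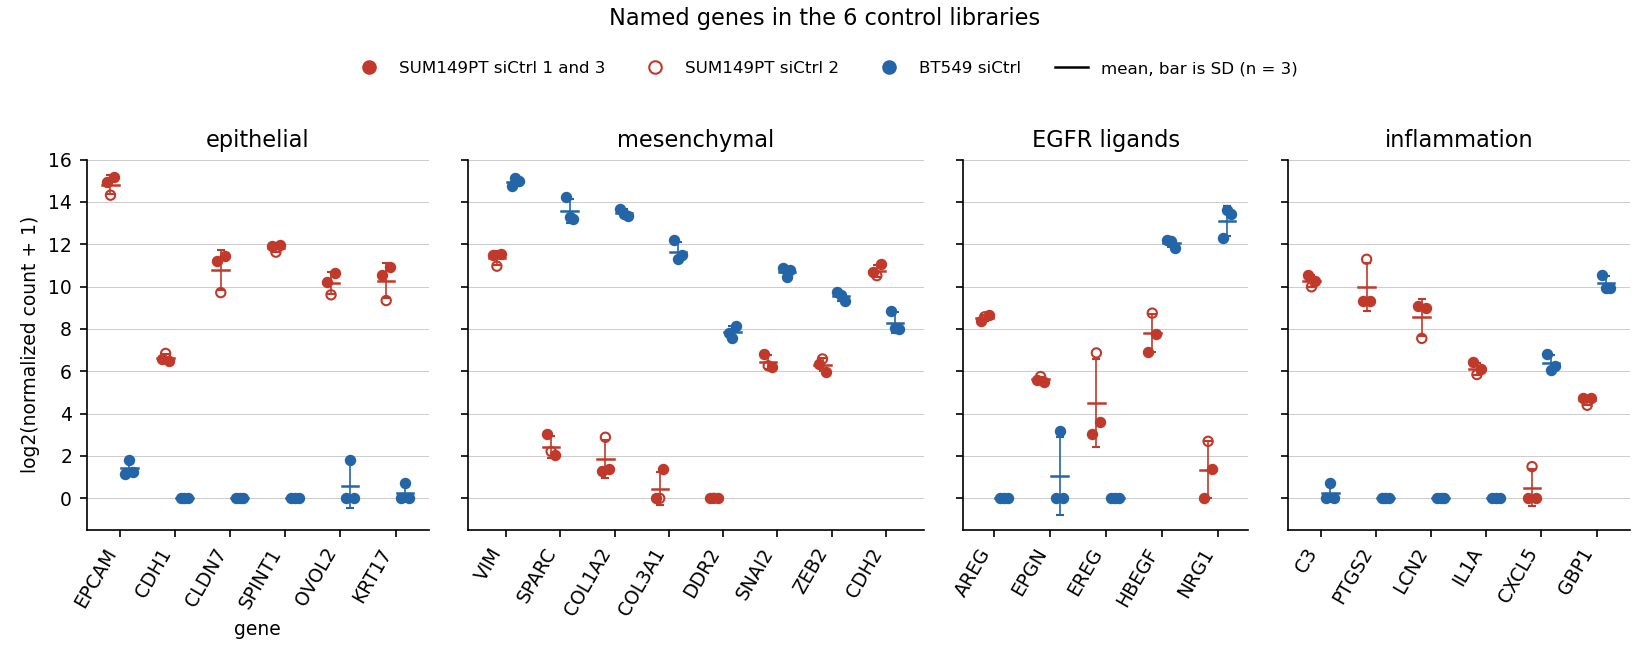
Log2(normalized count + 1) of named genes in each siCtrl library of SUM149PT (red, replicate 2 open) and BT549 (blue), with a line at the mean and a bar of 1 SD (n = 3). Epithelial genes lie near 0 in BT549 and matrix genes near 0 in SUM149PT, while CDH2 is higher in SUM149PT and the EGFR ligands divide between the lines.

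Matrix and adhesion genes differed by chain rather than as whole families. Of 31 collagen chains, 15 passed the filter, 6 were called lower in SUM149PT and 2 higher, as they were without the library labelled SUM149PT siCtrl replicate 2. The fibrillar chains COL1A2 and COL3A1 had 1.43, 6.38 and 1.60 and 0, 0 and 1.60 normalized counts in SUM149PT against 13167, 11056 and 10207 and 4641, 2498 and 2875 in BT549, and COL5A2 1.43, 5.47 and 0 against 258, 425 and 355. COL4A6, a basement membrane chain, had 0 in every SUM149PT library against 38.7, 17.6 and 32.3. The 2 chains that were higher were COL13A1, a transmembrane collagen, with 58.6, 38.3 and 84.7 against 1.25, 5.03 and 0.701, and COL16A1, with 515, 278 and 452 against 47.4, 108 and 104, the latter lost in 4 other settings. Of 31 integrin and laminin chains, 21 passed, 7 were called higher and 2 lower, or 9 and 5 without the library labelled SUM149PT siCtrl replicate 2. ITGB4, the integrin chain of hemidesmosomes, had 146, 86.6 and 152 in SUM149PT and 0 in each BT549 library (at least 49.7-fold higher, adjusted p = 5.26e-04, limma). The collagen-binding integrin chain ITGA11 had 0, 0.911 and 0 against 27.5, 94.95 and 35.8.

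Of 35 matrix proteases and inhibitors, 20 passed, 6 were called lower and 2 higher, or 9 and 2 without the library labelled SUM149PT siCtrl replicate 2. MMP2, a gelatinase, was higher in SUM149PT with 724, 486 and 749.7 normalized counts against 31.2, 3.77 and 9.82 (Log2 FC 5.76 ± 0.73, adjusted p = 0.00206, limma), while MMP1 and MMP3, a collagenase and a stromelysin, were lower with 14.3, 0 and 3.20 against 752, 143 and 263 and 0 in each library against 105, 47.8 and 152. ADAM12, a membrane metalloprotease, had 2.86, 18.2 and 14.4 against 4554, 6088 and 6631 (Log2 FC -9.09 ± 0.64, adjusted p = 2.07e-04). The lysosomal protease CTSB was read at 639, 550.3 and 529 against 19729, 11517 and 13395. A further MMP2 probe had 0, 79.3 and 3.20 in SUM149PT against 0 in each BT549 library, overlapped and was not called (adjusted p = 0.315, limma). Called proteases of the same family thus had opposite directions, MMP2 by 1 of its probes against MMP1 and MMP3.

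Serpins and secreted epithelial proteins were also higher in SUM149PT, while kallikreins and most cornified envelope genes were at or near 0 in both lines. Of 35 kallikreins, serpins and cornified envelope genes, 13 passed the filter and 11 were called higher in SUM149PT, 0 lower, also without the library labelled SUM149PT siCtrl replicate 2. None of the kallikreins passed the filter, nor did IVL, the SPRR genes or S100A7, S100A8 and S100A9. SERPINB5, or maspin, had 685, 589 and 937 normalized counts against 0, 0 and 0.701, a ratio of 2696 (95% interval 483 to 106555), and SERPINB3, a squamous cell serpin, 1091, 418 and 969 against 0, 0 and 0.701. LCN2, an iron-binding lipocalin of epithelial defence, had 549, 187 and 499 against 0 in each BT549 library, at least 159.6-fold higher (adjusted p = 2.61e-04, limma). CSTA, a cystatin of the cornified envelope, had 126, 279.7 and 63.9 against 0 in each BT549 library. By these probes, the second SUM149PT library was the highest of its group in CSTA and the lowest in LCN2. A further LCN2 probe, under the filter, had 0, 11.8 and 0 in SUM149PT and 0 in each BT549 library.

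Chemokines and cytokines leaned to SUM149PT, with 12 tested members of positive and 2 of negative Log2 FC (median 1.64). Genes of NF-kB and innate responses were called in both directions. Of 46 chemokines and cytokines, 14 passed the filter, 5 were called higher in SUM149PT and 1 lower, or 6 and 1 without the library labelled SUM149PT siCtrl replicate 2. IL1A, an alarm cytokine of epithelia, had 84.4, 56.5 and 68.7 normalized counts in SUM149PT and 0 in each BT549 library (at least 27.1-fold higher), and IL18 64.4, 39.2 and 63.9 against 0. CXCL5, a neutrophil chemokine, was the gene called lower, with 0, 1.82 and 0 against 111, 66.7 and 75.1 (ratio of BT549 to SUM149PT 95.8 (95% interval 26.3 to 795)). CXCL8, named after its values were seen, overlapped between the lines with 270.3, 97.5 and 232 against 489, 167 and 156 (adjusted p = 0.765, limma). Among 45 genes of NF-kB and innate responses, 29 passed, 5 were called higher and 7 lower (5 and 11 without the library labelled SUM149PT siCtrl replicate 2). The complement component C3 had 1472, 1015 and 1226 against 0, 0.629 and 0, a ratio of 4586 (95% interval 822 to 181181). PTGS2 and PTGES, consecutive enzymes of prostaglandin E2 synthesis, had 628, 2499.9 and 646 and 263, 80.2 and 208 in SUM149PT and 0 in every BT549 library, at least 488-fold and 71.3-fold higher. The receptor chains IL1R1 and IL6ST, which bind interleukin 1 and transmit interleukin 6 signals, were called lower in SUM149PT with 62.9, 16.4 and 3.20 against 391.8, 192 and 256 and 78.7, 329.8 and 109 against 791, 1006 and 1099, calls that were lost in 4 and 5 other settings. SUM149PT thus had more of the ligand IL1A and less of the receptor IL1R1, and Hs578T had 26.2, 206 and 16.7 and 331, 257 and 172.

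Of 58 interferon response and MHC genes, 35 passed, 4 were called higher and 6 lower, or 8 and 9 without the library labelled SUM149PT siCtrl replicate 2, so members of the family moved both ways. Over all probes the shares were 8.21% higher and 6.82% lower, or 16.7% and 18.5% without that library. BST2, or tetherin, had 8789, 3054 and 10110.5 normalized counts against 198, 99.4 and 152 (Log2 FC 5.48 ± 0.54, adjusted p = 7.24e-04, limma), and IFI27 152, 76.5 and 119.9 against 0, 10.1 and 0. GBP1, a guanylate-binding protein, had 25.7, 20.04 and 25.6 against 1515, 978 and 989.8 (Log2 FC -5.53 ± 0.39, adjusted p = 2.07e-04), and MX2, an antiviral GTPase, 0, 0.911 and 0 against 87.3, 150.3 and 180.3. XAF1 was at 0 in each SUM149PT library against 66.1, 84.9 and 37.9.

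The ligands of the EGFR family divided between the lines, while the receptor EGFR was not called with siCtrl. EGFR, a receptor tyrosine kinase and a candidate driver gene of the study, had 559, 579 and 636 normalized counts in SUM149PT and 759, 1479.6 and 1361 in BT549, with no overlap but no call (Log2 FC -0.96 ± 0.37, adjusted p = 0.145, limma), and after siASAP1 the Log2 FC was -1.22 (adjusted p = 0.0356, or 0.0618 without the library labelled SUM149PT siASAP1 replicate 2, which ends the call). AREG, or amphiregulin, had 326, 379 and 401 in SUM149PT and 0 in each BT549 library (at least 143-fold higher), with its other probe at 37.2, 211 and 19.2 against 0. EPGN and EREG, ligands of the same receptor, had 47.2, 52.8 and 44.8 and 7.15, 116 and 11.2 against 0, 8.17 and 0 and 0 in each library, and their calls were lost in 5 and 6 other settings. HBEGF was lower in SUM149PT with 120.1, 428 and 216 against 4764, 4545 and 3663 (Log2 FC -4.26 ± 0.49, adjusted p = 0.00145), as was NRG1, a ligand of ERBB3, for which the 5 tested probes were all called lower and read between 0 and 5.47 in SUM149PT. ERBB3 itself had 47.2, 51.02 and 19.2 in SUM149PT and 0 in each BT549 library (at least 15.2-fold higher), so ligand and receptor were read in different lines. ERBB2 overlapped, with 65.8, 14.6 and 110.3 against 32.4, 47.8 and 66.6. In the list of 17 genes of the family, 10 passed the filter, 4 were called higher and 2 lower, or 4 and 3 without SUM149PT siCtrl replicate 2.

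Among 45 other receptor tyrosine kinases, 21 passed, and 7 were called higher and 5 lower with and without SUM149PT siCtrl replicate 2. The ephrin receptors split, with EPHA1 at 153, 208 and 193 against 0 in each BT549 library and EPHB3 at 210.2, 191 and 197 against 4.99, 0 and 0, but EPHA5 at 8.58, 19.1 and 9.59 against 132, 814 and 678. The neurotrophin receptor NTRK3 had 4.29, 0 and 0 against 212, 132 and 184, and FGFR1 had 0 in each SUM149PT library against 48.7, 30.8 and 16.8. MST1R, the receptor RON, had 61.5, 892 and 91.1 against 0, 5.66 and 2.10, where the second SUM149PT library was about an order of magnitude above the others and the call was lost in 3 other settings.

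In the TGF-beta and BMP family, few members were called. Of 44 genes, 29 passed the filter, 4 were called higher in SUM149PT and 2 lower, or 8 and 5 without the library labelled SUM149PT siCtrl replicate 2. Over all probes the shares were 8.21% higher and 6.82% lower, or 16.7% and 18.5% without it. GREM1, a secreted BMP antagonist, had 914, 538 and 838 normalized counts in SUM149PT and 0 in each BT549 library (at least 296-fold higher), and the ligand BMP2 70.1, 117 and 117 against 0 (at least 39.2-fold), so a ligand and an antagonist of the pathway were higher together. TGFB2 was read at 2969, 2789 and 3149 against 182, 146 and 239 (Log2 FC 3.99 ± 0.34, adjusted p = 3.78e-04, limma). A further TGFB2 probe, under the filter, had 0, 39.2 and 0 in SUM149PT and 0 in each BT549 library. GDF15, a stress-induced family member, had 0, 4.56 and 3.20 against 278, 236 and 236, and BAMBI, a decoy receptor, 77.2, 120.3 and 92.7 against 1234, 740.1 and 729. Of 49 Wnt and Notch genes, 27 passed, 5 were called higher and 6 lower, or 6 and 7 without that library. The Wnt ligands WNT10A and WNT11 had 28.6, 21.9 and 30.4 and 37.2, 31.9 and 23.98 against 0 in each library and 7.49, 0 and 0, and LEF1, a transcription factor of the Wnt pathway, 262, 76.5 and 198 against 21.2, 9.43 and 6.31, with the calls of WNT11 and LEF1 lost in 6 and 3 other settings. Lower in SUM149PT were the Wnt target AXIN2, with 0 in each library against 34.9, 37.7 and 71.6, and the secreted DKK3, with 0, 0.911 and 0 against 514, 435 and 351.

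Receptors and lineage factors of the breast differed in both directions. ESR1, the estrogen receptor, had 24.3, 54.7 and 39.96 normalized counts in SUM149PT and 0 in each BT549 library (at least 15.4-fold higher, adjusted p = 0.00299, limma), while a further ESR1 probe had 0 in all 6 libraries as had the probes of PGR, the progesterone receptor. FOXA1, a pioneer factor of luminal cells, had 134, 30.1 and 319.7 against 6.24, 3.77 and 0, with a call that was lost in 6 other settings. LMO4, a LIM domain cofactor of transcription, went the other way with 184, 462 and 155 against 2630.4, 2587 and 2072 (Log2 FC -3.35 ± 0.47, adjusted p = 0.00335). In the list, 15 of 34 genes passed the filter, 5 were called higher and 2 lower, or 7 and 2 without the library labelled SUM149PT siCtrl replicate 2.

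RB1, the retinoblastoma protein that restrains entry into S phase, at chr13:48303726-48599436, had 104, 13.7 and 137 normalized counts in SUM149PT and 1.25, 1.89 and 0 in BT549, with Hs578T at 159, 144 and 170.4. The groups did not overlap and the Log2 FC was 5.00 ± 1.03 (SE, adjusted p = 0.0166, limma), with 6.02 (adjusted p = 0.00191) without the library labelled SUM149PT siCtrl replicate 2, and the call was lost in 5 other settings. CDKN2B, an inhibitor of the kinases that act on RB1, had 0 in each SUM149PT library against 59.9, 47.8 and 38.6, at least 12.4-fold lower. No other of the 25 tested genes of the RB pathway was called with 6 libraries (4 higher and 5 lower without the library labelled SUM149PT siCtrl replicate 2), and of 32 tested mitosis and replication genes only NUSAP1 was (5 higher and 4 lower without that library), with 13029, 8812 and 12504 against 5500.3, 3608 and 4632 and a call that was lost in 9 other settings.

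Of the candidate driver genes of the study, ASAP1, MYC, IRF2BP2, CCT5 and EGFR passed the filter and none was called with 6 libraries. ASAP1 had 1107, 966 and 944 normalized counts in BT549, and its Log2 FC was -0.63 ± 0.72 with all libraries and 0.25 without the library labelled SUM149PT siCtrl replicate 2 (adjusted p = 0.629 and 0.374, limma), so the sign turned with that library. MYC overlapped, with 2339.8, 868 and 2685 against 1430.0, 1094 and 868, and had a Log2 FC of 0.67 ± 0.50 (adjusted p = 0.444) that became 1.18 (adjusted p = 0.0182) and was called without it. DRD1, a dopamine receptor, had 0 in each SUM149PT library and 2.50, 0 and 0 in BT549, below the filter, while Hs578T had 60.8, 41.6 and 22.7. Of 37 Arf GTPases and regulators, the family that ASAP1 acts on, 25 passed, 3 were called higher and 1 lower, or 4 and 4 without that library. The shares over all probes were 8.21% higher and 6.82% lower, or 16.7% and 18.5% without it. ARAP2 and ARAP3, GTPase-activating proteins for Arf, had 24.3, 117 and 46.4 and 27.2, 21.9 and 36.8 against 0 in every BT549 library, and AGAP2 had 0, 3.64 and 0 against 22.5, 27.04 and 16.8, with a call that was lost in 6 other settings.

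Genes of detoxification and of inflammatory breast cancer completed the named groups. HMOX1, the heme-degrading enzyme at chr22:35380361-35394214, had 0 in each SUM149PT library against 897, 799.9 and 812 normalized counts in BT549 and 154, 116 and 113 in Hs578T, at least 212-fold lower (adjusted p = 8.90e-05, limma). MGST1, a microsomal glutathione transferase, had 2337, 24636 and 1825 against 3.74, 15.1 and 26.7, and the second SUM149PT library was about an order of magnitude above the others. GSTM3, a cytosolic transferase, was lower with 81.5, 66.5 and 78.3 against 948, 413 and 368. In that list of 42 genes, 30 passed, 4 were called higher and 2 lower, and 12 and 6 without the library labelled SUM149PT siCtrl replicate 2. The shares over all probes were 8.21% higher and 6.82% lower, or 16.7% and 18.5% without that library. Of 23 genes linked to inflammatory breast cancer, 15 passed, 3 were called higher and 2 lower, or 3 and 3 without that library. RARRES1 had 1609, 10524 and 1122 against 7.49, 7.55 and 4.91, and CAV1, the coat protein of caveolae, 2371, 1685 and 2649 against 28934, 9382 and 11357 (Log2 FC -2.73 ± 0.49, adjusted p = 0.00876). NOTCH3 had 143, 232 and 97.5 against 394, 857 and 739, a call lost in 4 other settings. The remaining lists held HOX genes (9 of 39 passed, 2 called higher, HOXA2 and HOXA10), cancer-testis antigens (4 of 30 passed, 2 called lower, the near-identical MAGEA6 and MAGEA12, the latter lost in 6 other settings) and ribosomal proteins (48 of 52 passed, RPS6 higher and RPS20 lower, lost in 4 and 8 other settings). Without the same library these lists had 6 HOX genes called higher, 2 cancer-testis antigens lower, and 9 ribosomal proteins higher and 2 lower. Over all probes, 16.7% were called higher and 18.5% lower without that library. Of 28 markers of cells foreign to the cultures (leukocyte, endothelial, erythroid, liver, melanocyte and glial), 3 passed the filter and 2, PECAM1 and CSF1R, were called higher in SUM149PT with 78.7, 103 and 51.2 and 61.5, 16.4 and 33.6, the call of CSF1R being lost in 3 other settings (3 higher without that library), and the other 25 markers stayed under the minimum. A further PECAM1 probe had 0 in all 6 libraries. A further CSF1R probe, under the filter, had 0, 10.02 and 0 in SUM149PT and 0 in each BT549 library.

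**Figure D3:**
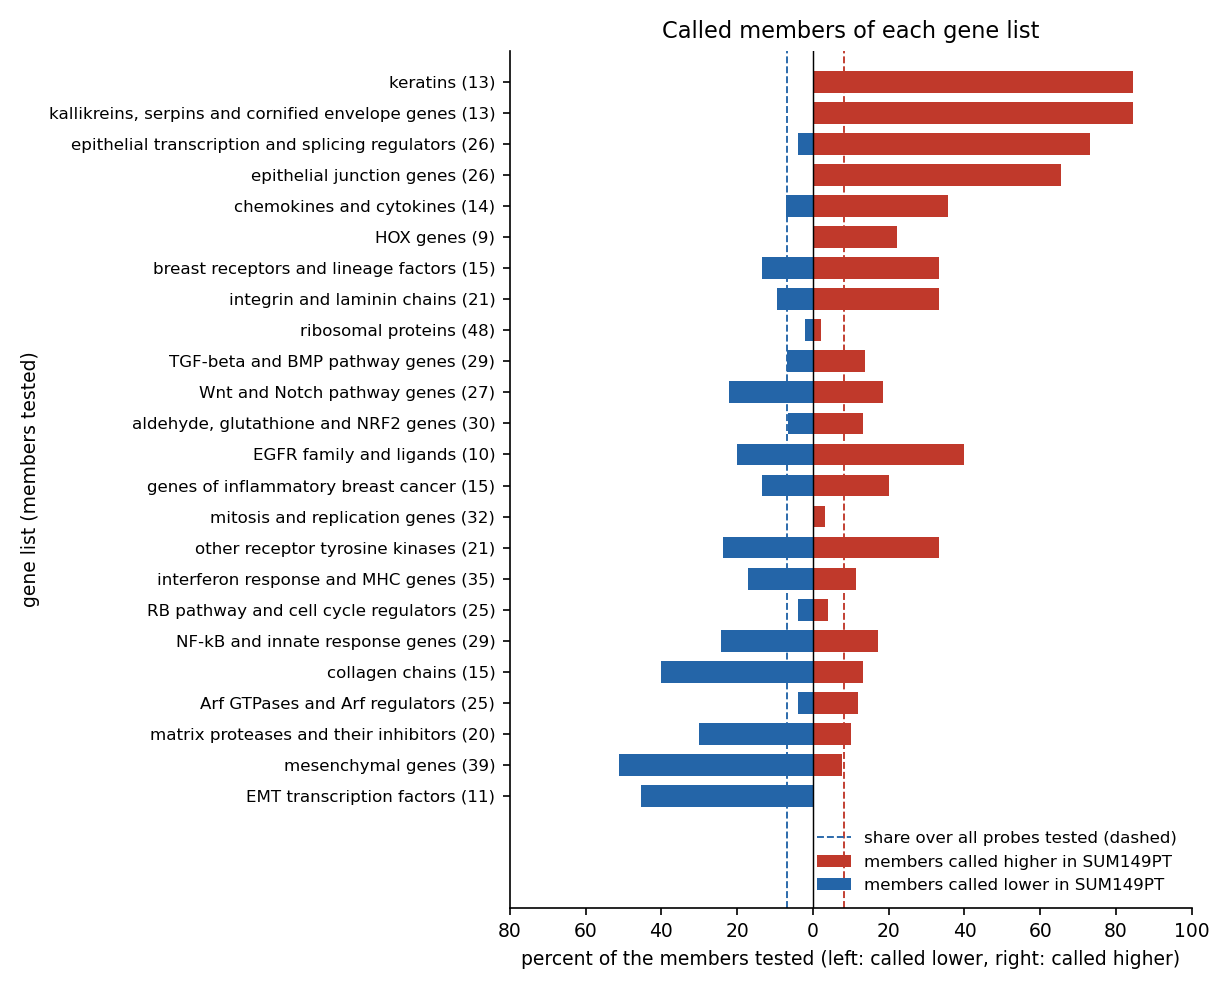
Percent of the tested members of each gene list (number tested in brackets) called higher (red, right) or lower (blue, left) in SUM149PT, with dashed lines at the 8.21% and 6.82% of all probes. Keratins and the list of kallikreins, serpins and cornified envelope genes each reach 11 of 13 tested members called higher, and mesenchymal genes 20 of 39 called lower.

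The same lines were also read after siASAP1, in 6 libraries that the comparison above did not use. There 936 of 10421 probes (8.98%) were called higher in SUM149PT and 751 (7.21%) lower, or 940 (9.02%) and 801 (7.69%) without the library labelled SUM149PT siASAP1 replicate 2. Of the 776 probes called higher with siCtrl and tested again, 758 had the same direction after siASAP1 (97.7%) and 578 were also called, and of the 640 called lower, 629 (98.3%) and 427. Over all 9653 probes tested in both, 69.2% had the same direction and the Log2 FC correlated at r = 0.818 across probes, which are not independent and share the probe chemistry. EPCAM had a Log2 FC of 14.02 after siASAP1, VIM -5.96 and NRG1 -12.10, beside 13.39, -3.63 and -11.75 with siCtrl. Among the 1608 probes called higher without the library labelled SUM149PT siCtrl replicate 2, 1177 kept their direction in the siASAP1 fit without its own replicate 2, and 1066 of 1773 called lower did. For the calls with all 6 libraries, these counts were 749 of 776 and 616 of 640. The share of all probes with the same direction was not computed for the fits without the libraries numbered 2.

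A difference of the line effect between siRNAs was tested with an interaction in limma over 12 libraries. It passed an adjusted p of 0.05 in 0 of 10341 probes, with 738 at an unadjusted p under 0.05 and a smallest adjusted p of 0.125. Without both SUM149PT libraries numbered 2, 797 probes passed and 3417 had an unadjusted p under 0.05. Of the 1474 probes called with siCtrl in this fit, 96 were among the 797, beside 797 of all 10341 probes tested. The called probes were chosen with the same siCtrl libraries, replicate 2 among them. These shares therefore do not tell whether called probes differ from probes in general. The count of probes that passed depended on the 2 SUM149PT libraries numbered 2, and the cause was not tested.

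**Figure D4:**
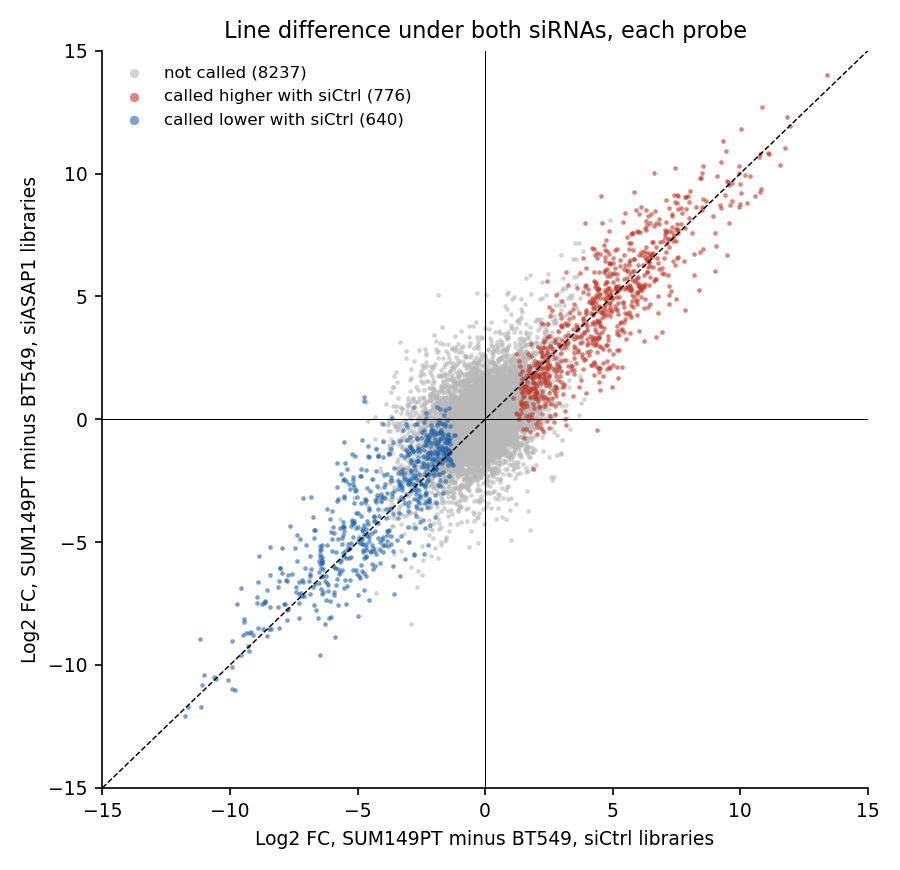
Log2 FC of SUM149PT minus BT549 for 9653 probes, siCtrl libraries on the x axis and siASAP1 libraries on the y axis, with the dashed line at equal values. The 776 probes called higher (red) and 640 called lower (blue) with siCtrl lie mostly in the quadrants of equal sign, and the probes not called scatter around 0.

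The share of genes called ranged widely between chromosomes, beside 8.21% called higher and 6.82% called lower over all probes tested. For 9282 genes placed by GENCODE on GRCh38, chromosome 5 had a median Log2 FC of -1.04 over 460 genes, of which 78 (16.96%) were called lower and 17 (3.70%) higher. Its windows of 25 Mb all had a negative median, from -0.68 to -1.502, with the lowest between 25 and 50 Mb (35 genes). On chromosome X, 54 of 311 genes (17.4%) were called lower and 17 higher, with a median of -0.67, and chromosome 8 had a median of -0.67 over 324 genes. On the side of SUM149PT were chromosome 15 (median 0.71, 46 of 306 genes higher, 15.03%), chromosome 14 (0.53) and chromosome 12 (0.52), and windows between 25 and 50 Mb on chromosome 11 (median 1.17, 70 genes) and chromosome 15 (1.017, 98 genes). Of 123 windows with at least 20 genes, 9 had a median under -1 and 2 over 1. After siASAP1 the medians of chromosomes 5, X and 15 were -0.80, -0.72 and 0.57, and without the library labelled SUM149PT siCtrl replicate 2 -1.24, -0.77 and 0.72.

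**Figure D5:**
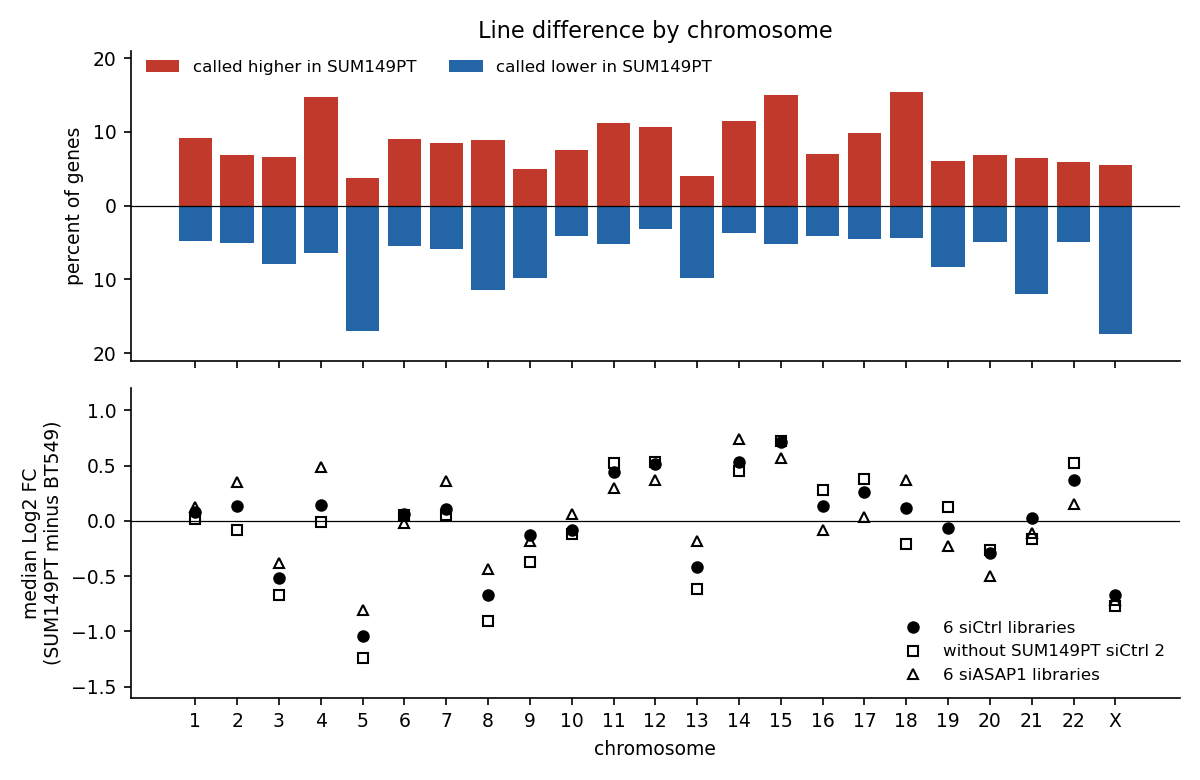
Top, percent of the genes on each chromosome called higher (red, up) or lower (blue, down) in SUM149PT; bottom, median Log2 FC per chromosome with 6 siCtrl libraries, without SUM149PT siCtrl 2 and with 6 siASAP1 libraries. Chromosomes 5 and X hold the highest shares of lower calls, 16.96% and 17.4%, and the medians of chromosome 5 lie at -1.04, -1.24 and -0.80.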

How the data were processed

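TempO-Seq values of 21111 probes in 18 libraries were used, of which 6 siCtrl libraries carried the main comparison. Values were deposited as log2: the authors assigned reads to probes (the labels name bcl2fastq, Bowtie and DESeq2), divided them by DESeq2 size factors, added 1 and took log2, with replicates kept apart. Undoing the log2 gave whole reads for 100% of values (tolerance 0.05 read), so depth was known, at 4.63 to 9.46 M reads in the 6 libraries, and intervals cover counting error only. Probes averaging 10 or more normalized counts were tested with limma 3.58.1 (R 4.3.3, intensity trend), and p-values were adjusted by Benjamini-Hochberg. Log2 FC values are on the log2(normalized count + 1) scale and understate low genes. Ratios with an interval use pooled reads over summed depth, and folds given as at least use mean normalized counts. A gene is given by its probe with the highest mean. Named genes were the candidate drivers, a short list of receptors and lineage genes, up to 4 called members per list and direction, and the 8 largest changes in each direction. These largest changes were taken among called probes with a mean of at least 100 and no overlap between the groups. Members, lists and tests were chosen with earlier results of these data known. The replicate numbers were not taken to pair the libraries. Gene positions came from GENCODE 29 and promoters from RefSeq GRCh38.p14. A few named genes are not reported here. Scripts were tested on simulated data.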

Additional observations from a re-analysis of the deposited data

How the results depend on the processing

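The 829 higher and 688 lower calls became 522 and 482 with a minimum mean of 50, which left 6813 probes to test, 1427 and 1252 with an unadjusted p, and 2508 and 2925 with library weights, an alternative chosen after seeing the data that gave the library labelled SUM149PT siCtrl replicate 2 a weight of 0.0916. Leaving out 1 library in turn gave 532 to 1684 higher calls and 337 to 1870 lower calls, the upper ends without SUM149PT siCtrl replicate 2 and the lower ends without BT549 siCtrl replicate 3; without BT549 siCtrl replicate 2 the lower calls were 360, and without SUM149PT siCtrl replicate 1 the calls were 544 and 450. Of all calls, 54.6% were higher, against 47.4% without SUM149PT siCtrl replicate 2, 46.2% with library weights and 48.9% with library totals, which shifted the median of all probes to -0.167. None of the 1517 called probes that were tested changed sign in any of these settings. The interaction passed in 0 probes, in 0 to 1 with 1 library left out, and in 797 without both SUM149PT libraries numbered 2, chosen after seeing the data.

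Same-numbered libraries of the lines deviated with correlations of 0.309, 0.343 and -0.137, and libraries of different number with -0.358 to 0.244. These values do not settle whether the numbers pair the libraries, and no pairing was assumed. A fit with the replicate block gave 819 higher and 733 lower calls and 0 interactions. Of the 131 called named genes, 33 lost the call in at least 1 of 20 settings, mostly with 1 library left out, and none changed sign. The Log2 FC of ASAP1, -0.63 and not called, was 0.18 with library weights and ran from -1.15 to 0.25 with 1 library left out. That of ERBB2, 0.02 and not called, was -0.40 with a GC correction, -0.13 with library totals, -0.018 with size factors of the 6 libraries, -0.19 with voom weights, and ran from -0.57 to 0.85 with 1 library left out. The cause of these changes was not tested. With 3 libraries a group, small differences and probes of few reads were not resolved.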
